A study of Homo sapiens with 6 samples.

Results

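The genes described here encode the chaperones and folding enzymes of the endoplasmic reticulum (ER), the sensors and transcription factors of the unfolded protein response (UPR), and the machinery of ER-associated degradation (ERAD). They were read in HEK293t cells in which the long noncoding RNA linc00598 was knocked down. The 32 genes were taken by symbol from a list of such genes. A probe carries the name of 31 of them, and 29 passed the detection filter, out of 17225 genes and unnamed probes tested in all. HERPUD1 is not analysed here because no named probe was at hand. The single probes of PDIA3 and ERN1 were not detected on any array, with detection p-values of 0.253 to 0.731 for PDIA3 and of 0.899 to 0.977 for ERN1. PDIA3 is an oxidoreductase that works with the lectin chaperones, and ERN1 encodes the sensor IRE1.

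HEK293t is a line of human embryonic kidney cells that makes the large T antigen of a virus. RNA of 3 stable lines was hybridized to Illumina HumanHT-12 v4 BeadChip arrays. The lines shlinc00598#2 and shlinc00598#3 each carried an shRNA against linc00598 in the pLKO.1 vector, and the line shCTL carried a control shRNA. Each line had 2 arrays, named replicate 2 and replicate 1 in the labels, which gave 6 arrays on 1 BeadChip. Whether the replicates came from separate cultures is not given in the labels, so the p-values measure only the spread between these arrays, which may be technical. LINC00598 itself has no named probe, and how deep the knockdown was could not be read from these arrays. The study measured linc00598 in its control and knockdown lines by qRT-PCR.

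Between 20864 and 22134 probes were detected on an array, out of 47321, with median intensities of 105.4 to 126.2. The precision of each value is limited by how few arrays there were, and folds are compressed for genes close to background. The first principal component held 69.4% of the variance and separated replicate 2 from replicate 1. Of 8 genes listed as markers of HEK293t cells, 7 had a named probe and 5 (VIM, KRT8, KRT18, NEFL and NEFM) were detected on all 6 arrays, while PAX2 and LHX1 were not detected on any. Among markers of other cell types, PTPRC and CD3E of leukocytes, COL1A2 of fibroblasts and SERPINA1 of hepatocytes were not detected on any array, while CD14, COL1A1, COL3A1, ALB and APOA1 were detected on all 6.

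Proteins that enter the secretory pathway fold in the ER lumen with the help of HSP70 and HSP90 chaperones, of lectin chaperones that bind their sugars, and of enzymes that form disulfide bonds. When unfolded protein builds up, the UPR is switched on through IRE1, whose RNase splices XBP1 mRNA into the form that encodes an active transcription factor, through ATF6, which is cleaved in the Golgi to release a transcription factor, and through PERK, encoded by EIF2AK3, a kinase that slows translation and favours that of ATF4. Proteins that fail to fold are passed back to the cytosol by ERAD, in which the SEL1L and SYVN1 complex attaches ubiquitin.

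ATF6 and XBP1 are known to act on the ER stress response element (ERSE) of chaperone promoters. The element was searched for on both strands as CCAAT, then 9 bases of any kind, then CCACG, in the RefSeq windows that run from 250 bases before to 50 bases after each start (build GRCh38.p14). A window was at hand for 29 of the 32 genes, and for all but PDIA3, DERL1 and DERL3. The ERSE was present in 8 of these 29 genes (27.6%), namely HSPA5, HSP90B1, CALR, CANX, PDIA6, CRELD2, XBP1 and ERO1B. Over all 27305 genes with a window it was present in 25 (0.0916%). A second form, ERSE-II (ATTGG, then 1 base of any kind, then CCACG), was present in 3 of the 29 (10.3%), HYOU1, SDF2L1 and HERPUD1, and in 0.0696% of all genes. The core of the UPR element, TGACG directly followed by TGG, was found in HYOU1 alone (3.45%, against 0.927% of all genes), where it overlapped 1 of the 2 ERSE-II matches. The core of the element bound by ATF4 and C/EBP factors (TGATG, then 1 base of any kind, then AA) was found in HERPUD1 and CREB3L2 (6.9%, against 4.46% of all genes). These are exact matches of letters and not measured sites.

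The stretches around the match nearest the start are shown for 4 ERSE genes and the 2 measured ERSE-II genes, since these genes lay on both sides of the difference between replicates given further on. Each is written 5′ to 3′ on the strand of its gene, with the fixed letters of the match in capitals.
HSPA5 (chr9:125241376-125241424, minus strand, match at -66 to -48 from the start): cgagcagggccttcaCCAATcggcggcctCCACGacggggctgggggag
XBP1 (chr22:28800588-28800636, minus strand, match at -52 to -34): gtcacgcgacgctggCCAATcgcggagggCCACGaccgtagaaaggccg
CALR (chr19:12938369-12938417, plus strand, match on the opposite strand at -225 to -207): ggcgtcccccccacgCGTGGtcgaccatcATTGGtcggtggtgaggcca
CRELD2 (chr22:49918539-49918587, plus strand, match on the opposite strand at -80 to -62): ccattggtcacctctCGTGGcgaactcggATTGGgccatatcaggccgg
SDF2L1 (chr22:21642099-21642139, plus strand, ERSE-II on the opposite strand at -188 to -178): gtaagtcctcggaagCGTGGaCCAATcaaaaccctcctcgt
HYOU1 (chr11:119057259-119057299, minus strand, ERSE-II on the opposite strand at -79 to -69): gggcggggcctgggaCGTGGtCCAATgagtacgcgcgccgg

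Knockdown of linc00598 changed none of the 29 genes past the threshold. Differences between the mean of both knockdown lines and shCTL ran from -0.25 for EIF2AK3 to 0.24 for DNAJC3 on the log2 scale, with a median of -0.04 beside -0.000487 over all genes tested. The limma fit to the 6 arrays called 0 of the 29 genes and 0% of all genes (adjusted p under 0.05), and 0 of the 29 had an unadjusted p under 0.05, while 329 of all genes did. The test named in the study's methods, run on the same values, likewise called 0 of the 29 and 0 of all genes, with 0 of the 29 and 718 of all genes at an unadjusted p under 0.05. With the replicate number as a block, limma called 0 of the 29 and 0.00581% of all genes. In that fit the standard errors of the 29 differences ran from 0.09 to 0.17, and 1 gene was lower at an unadjusted p under 0.05 (EIF2AK3, where 7.58% of all genes were) and 1 was higher (DNAJC3, where 6.13% were). None of the 29 met the study's 1.4-fold criterion in both lines, in which 0.284% of all genes were lower and 0.0581% higher.

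EIF2AK3, the gene of the sensor kinase PERK, had a log2 intensity of 8.41 in shlinc00598#2 and 8.30 in shlinc00598#3, against 8.63 in shCTL, in replicate 2. In replicate 1 it stood at 8.65 in shlinc00598#2 and 8.75 in shlinc00598#3, against 8.93 in shCTL. Both knockdown arrays lay below the control array in each replicate, but the knockdown arrays of replicate 1 lay above the control array of replicate 2, so that the groups overlapped. The log2 difference of the mean of both lines was -0.25 (standard error 0.09, blocked limma fit, adjusted p = 0.297). It was -0.25 in each line as well (standard error 0.11, adjusted p = 0.372 in shlinc00598#2 and 0.414 in shlinc00598#3, same limma fit).

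DNAJC3, a co-chaperone of the HSP70 chaperone of the lumen that also restrains PERK, had log2 intensities of 8.14 and 8.33 in shlinc00598#2 and shlinc00598#3 of replicate 2, against 8.08 in shCTL. In replicate 1 the values were 8.10 and 8.22, against 7.84 in shCTL. All 4 knockdown arrays lay above both control arrays. The log2 difference was 0.24 (standard error 0.09, blocked limma fit, adjusted p = 0.306), and it was 0.32 in shlinc00598#3 and 0.16 in shlinc00598#2.

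SIL1, an exchange factor that releases nucleotide from the HSP70 chaperone, had log2 intensities of 10.47 and 10.45 in shlinc00598#2 and shlinc00598#3 of replicate 2, against 10.66 in shCTL, and of 10.75 and 11.16 in replicate 1, against 11.19 in shCTL. The gap to shCTL ran from -0.43 in shlinc00598#2 of replicate 1 to -0.03 in shlinc00598#3 of the same replicate. The mean difference was -0.22 (standard error 0.11, blocked limma fit, adjusted p = 0.408), and a second SIL1 probe gave -0.21.

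MANF, a secreted protein that is induced by ER stress, had log2 intensities of 13.12 and 13.13 in the knockdown arrays of replicate 2, against 12.90 in shCTL, and of 12.95 and 12.80 in those of replicate 1, against 12.74 in shCTL. DERL2, a derlin of the ERAD channel, had 9.91 and 9.79 in the knockdown arrays of replicate 2, against 9.70 in shCTL, and 9.66 and 9.72 in those of replicate 1, against 9.54 in shCTL. Both genes lay above the control array in every comparison within a replicate, by at most 0.24 for MANF and 0.21 for DERL2. The differences of 0.18 and 0.15 were not called in the blocked limma fit (adjusted p = 0.423 for MANF and 0.497 for DERL2).

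Comparisons within a replicate leave the difference between replicates out. Of the 29 genes, 3 were lower than shCTL in all 4 such comparisons, namely P4HB (a disulfide isomerase), EIF2AK3 and SIL1, where 16.1% of all genes were. A further 5 were higher in all 4, namely DNAJC3, HYOU1 (an HSP70-like exchange factor), MANF, SEL1L and DERL2, where 15.5% of all genes were. These counts lay near the shares of all genes. The other HYOU1 probe was lower than shCTL in both knockdown arrays of replicate 1 (9.26 and 9.07, against 9.31). In replicate 2 it was higher in both (9.59 and 9.50, against 9.22). With the mean of a gene's probes, 4 genes were higher in all 4 comparisons.

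The knockdown lines did not differ from each other past the threshold in any of the 29 genes, and limma called 0 of all genes as well. At an unadjusted p under 0.05 limma had 0 of the 29 with or without the block. Of all genes it had 205 without the block and 1481 with it. Differences of shlinc00598#2 minus shlinc00598#3 ran from -0.20 for EDEM1, a lectin that brings misfolded glycoproteins to ERAD, to 0.29 for CRELD2, a secreted protein of the ER stress response. Against shCTL, the 29 genes ran from -0.31 (SIL1) to 0.22 (MANF) in shlinc00598#2. In shlinc00598#3 they ran from -0.25 (EIF2AK3) to 0.32 (DNAJC3). Limma without the block called 0 of the 29 and 0 of all genes in each line. With the block it called 0 of the 29 in each line, beside 3 of all genes in shlinc00598#2 and 4 in shlinc00598#3. In that fit 2 of the 29 in each line had an unadjusted p under 0.05, beside 2253 and 2008 of all genes.

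**Figure D1:**
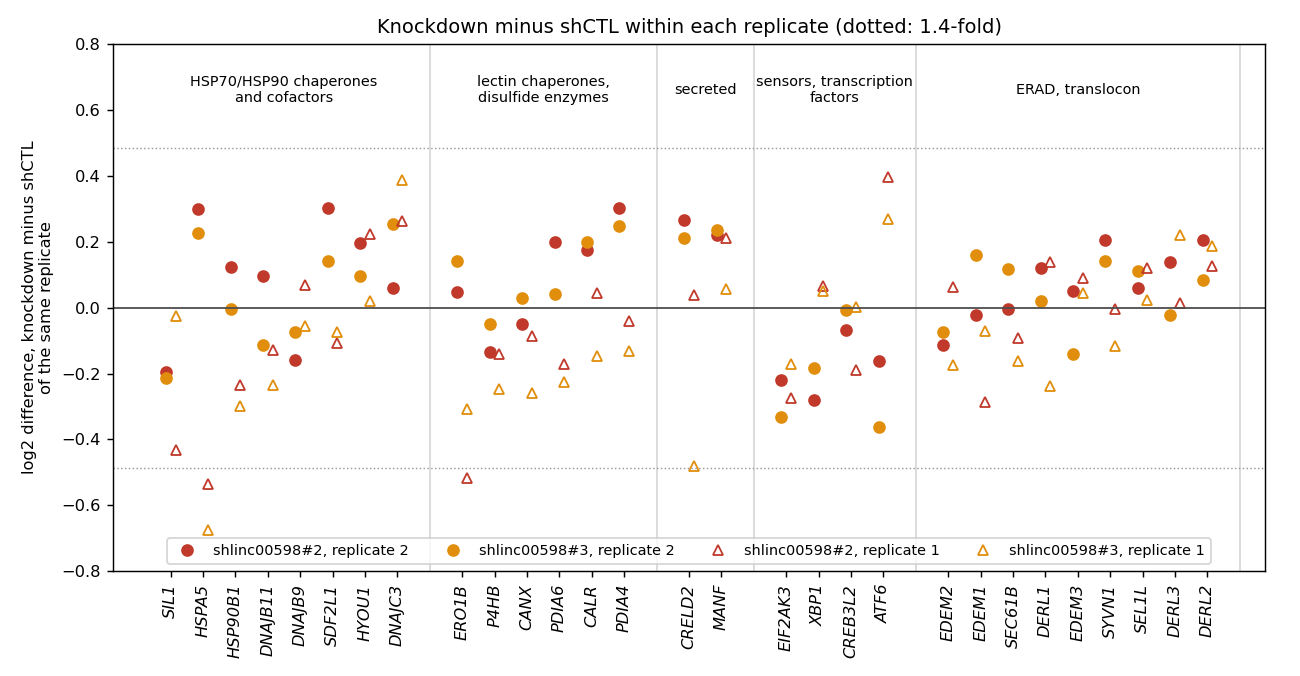
Log2 difference of each knockdown array from the shCTL array of the same replicate, for the 29 measured genes by role (filled circles, replicate 2; open triangles, replicate 1; red, shlinc00598#2; orange, shlinc00598#3; dotted lines, 1.4-fold). All points but 3 lie within the dotted lines; HSPA5 lies above 0 in replicate 2 and at -0.54 and -0.68 in replicate 1.

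HSPA5 encodes BiP, the HSP70 chaperone of the ER lumen that also binds the UPR sensors. In replicate 2 its log2 intensity was 9.79 in shlinc00598#2 and 9.71 in shlinc00598#3, against 9.49 in shCTL. In replicate 1 it was 10.04 and 9.90, against 10.58 in shCTL. The control arrays were thus the lowest and the highest of the 6, and HSPA5 was higher than shCTL in both knockdown arrays of replicate 2 and lower in both of replicate 1. Per line, HSPA5 averaged 9.91 ± 0.18 in shlinc00598#2 and 9.81 ± 0.13 in shlinc00598#3, against 10.03 ± 0.77 in shCTL (SD, n = 2 each).

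The mean knockdown difference of HSPA5 was 0.26 in replicate 2 and -0.61 in replicate 1. In a limma fit of the interaction of knockdown and replicate, the effect in replicate 2 minus that in replicate 1 was 0.87 (standard error 0.19, unadjusted p = 0.00149, adjusted p = 0.627). That fit called 0 of the 29 genes and 0% of all genes, with 1057 of all genes and 3 of the 29 at an unadjusted p under 0.05. The other 2 were ATF6, the sensor that becomes a transcription factor (-0.60, adjusted p = 0.797), and ERO1B, an oxidase that recharges the disulfide isomerases (0.51, adjusted p = 0.804). The fit rests on 1 control array in each replicate. Without shCTL replicate 2, a blocked limma fit chosen after seeing the data called HSPA5 lower (-0.61, adjusted p = 0.0253), together with 252 features in all (1.46%, against 0.00581% in the fit to all 6 arrays). The control then has 1 array, which is assumed to vary like the arrays of the other lines. That array is of replicate 1, where HSPA5 was lower in the knockdown. Without shCTL replicate 1 instead, the control array left is of replicate 2, where the HSPA5 difference was 0.26, in the opposite direction. The blocked fit did not call HSPA5 there. Whether HSPA5 was called lower thus depended on which control array was kept. In the fit without shCTL replicate 2 and without the block, HSPA5, XBP1 and ERO1B met the 1.4-fold criterion in both lines. Their mean knockdown differences there were -0.72, -0.53 and -0.61. These values also hold the difference between the replicates, since the control array left is of replicate 1. The share of all genes that met the criterion in this fit was not counted, so these genes cannot be set against it. Without shCTL replicate 1 instead, the unblocked differences were 0.37, 0.36 and 0.30.

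HSPA5 was 1 of 6 genes that were higher than shCTL in both knockdown arrays of replicate 2 and lower in both of replicate 1, with PDIA4, PDIA6, SDF2L1, SYVN1 and ERO1B; 9.61% of all genes did so. XBP1 and ATF6 went the other way, as did 10.3% of all genes. The second kept probes of ERO1B, SYVN1 and XBP1 did not show these reversals. That of ERO1B had 8.12 and 8.35 in the knockdown arrays of replicate 2, against 8.37 in shCTL. In replicate 1 it had 8.62 and 8.93, against 8.86 in shCTL. Over the 29 genes, 18 were higher than shCTL in replicate 2 and 11 lower, with a median of 0.07, while in replicate 1 10 were higher and 19 lower, with a median of -0.09. The median of all genes in replicate 2 was -0.00237. HSP90B1, the HSP90 chaperone of the lumen, had log2 intensities of 13.57 and 13.44 in the knockdown arrays of replicate 2, against 13.44 in shCTL, and of 13.45 and 13.38 in those of replicate 1, against 13.68 in shCTL. Its mean knockdown difference was 0.06 in replicate 2 and -0.27 in replicate 1.

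**Figure D2:**
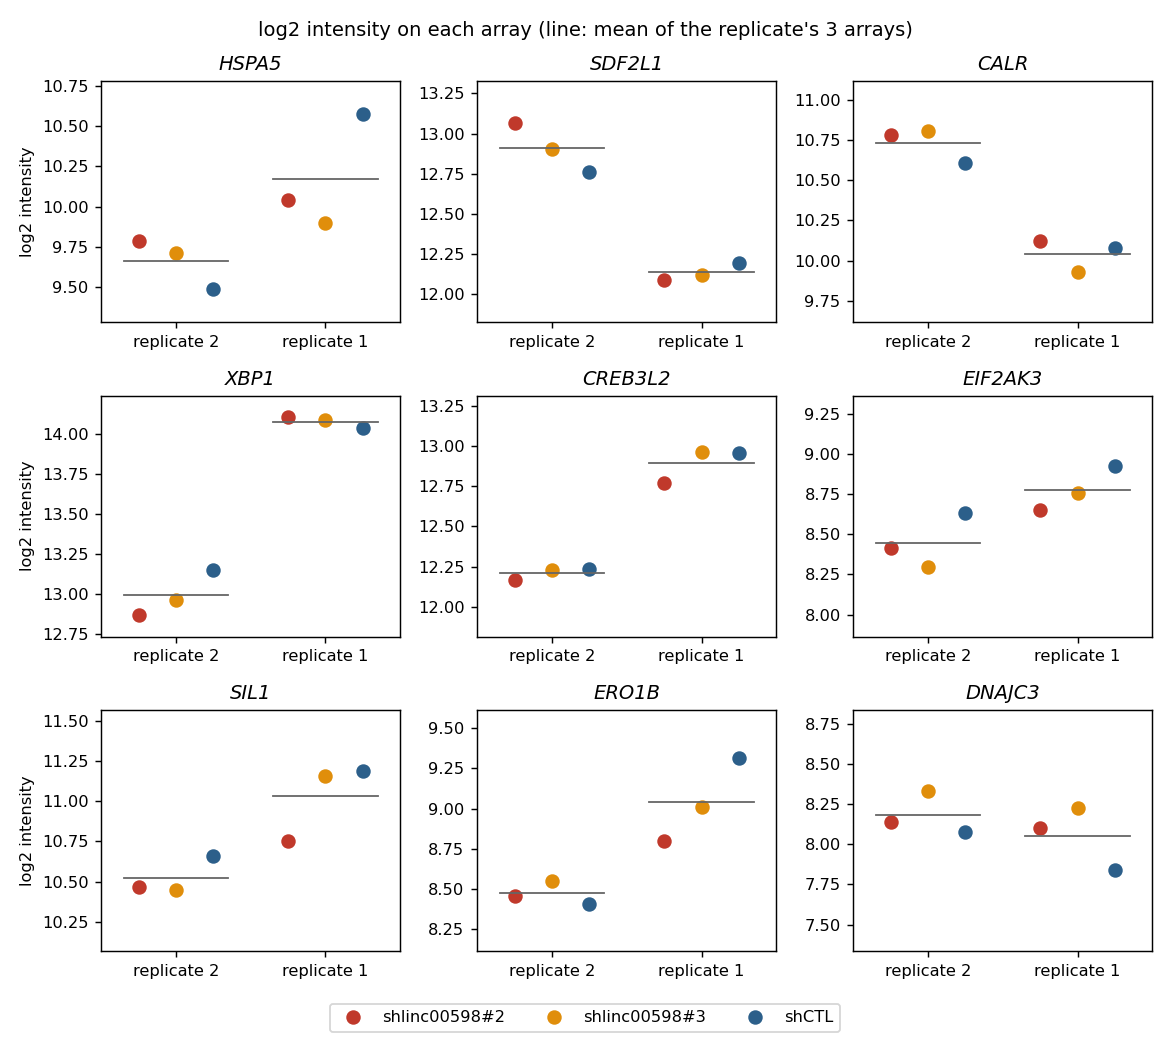
Log2 intensity of 9 genes on each of the 6 arrays, with replicate 2 left of replicate 1 and the knockdown lines (red, shlinc00598#2; orange, shlinc00598#3) left of shCTL (blue); the horizontal line is the mean of the 3 arrays of a replicate, and every panel spans the same log2 range. For XBP1 the 3 arrays of replicate 2 lie between 12.87 and 13.15, below all 3 of replicate 1, while for SDF2L1 they lie above.

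Differences between the replicates were called far more often than those between the lines. In a limma fit with line and replicate as terms, 13 of the 29 genes differed between replicate 2 and replicate 1 (adjusted p under 0.05), where 36.6% of all genes did. Of these, 8 were lower in replicate 2 (17.8% of all genes) and 5 were higher (18.8% of all genes). All 3 arrays of replicate 2 lay above all 3 of replicate 1 for 7 of the 29 genes, where this held for 23.5% of all genes, and below them for 8, where it held for 20.5%. Replicate 1 held the first 3 positions of the BeadChip and replicate 2 the last 3, so position and replicate cannot be told apart. The counts above follow the labelling of the values before normalization. In the authors' normalized values, whose labels differ for 4 of the 6 arrays, 0 of the 29 and 0% of all genes were called.

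Transcription factors were among the genes lower in replicate 2. XBP1 had log2 intensities of 12.87, 12.97 and 13.15 in shlinc00598#2, shlinc00598#3 and shCTL of replicate 2, against 14.10, 14.09 and 14.04 in replicate 1. The replicates did not overlap, and the log2 difference of -1.08 (standard error 0.10, limma adjusted p = 8.84e-05) made XBP1 2.11-fold lower in replicate 2. A second XBP1 probe was lower in replicate 2 as well (limma adjusted p = 7.11e-05). The positions of the probes on the transcript are not in the tables used here, so no value reads the splicing of XBP1 mRNA.

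CREB3L2, an ER-bound transcription factor of the ATF6 type that acts on secretory genes, had 12.17, 12.23 and 12.24 in the same order of lines in replicate 2, against 12.77, 12.96 and 12.96 in replicate 1. The arrays of replicate 2 lay closely together and below all of replicate 1 (log2 difference -0.69, standard error 0.08, limma adjusted p = 0.000392). EIF2AK3 was also lower in replicate 2 (-0.33, limma adjusted p = 0.0165), with the values given above, but was not called without either array of shlinc00598#3 (-0.27). ATF6 did not pass the test (0.34, limma adjusted p = 0.0576, but 0.00867 with median scaling and 0.0447 without either array of shlinc00598#3), at 11.11, 10.91 and 11.27 in replicate 2 and 10.93, 10.81 and 10.54 in replicate 1. The median difference of the 4 measured sensors and transcription factors was -0.51.

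The chaperones and their helpers split. DNAJB9, a J-domain protein that targets clients and represses IRE1, had 9.82, 9.91 and 9.98 in shlinc00598#2, shlinc00598#3 and shCTL of replicate 2, against 10.61, 10.49 and 10.54 in replicate 1 (log2 difference -0.64, limma adjusted p = 0.000663). It was lower in replicate 2 in every line. SDF2L1, which works with the J-domain protein DNAJB11, had 13.06, 12.90 and 12.76 in replicate 2, against 12.09, 12.12 and 12.20 in replicate 1. It was the member with the largest rise among the 29 (0.77, standard error 0.10, limma adjusted p = 0.000464), or 1.71-fold higher in replicate 2.

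HSPA5 (-0.51, limma adjusted p = 0.0316) and SIL1 (-0.51, limma adjusted p = 0.00382) were lower in replicate 2, while HYOU1 was higher (0.33, limma adjusted p = 0.0134), at 10.33, 10.23 and 10.13 in replicate 2, against 10.04, 9.84 and 9.82 in replicate 1. Without shCTL replicate 2, or without shCTL replicate 1, the HSPA5 difference was -0.22 and was not called, and HYOU1 (0.30) was not called without either array of shlinc00598#3. The second HYOU1 probe had a smaller difference of 0.23 and was not called (limma adjusted p = 0.141). HSP90B1, DNAJB11 and DNAJC3 had differences of -0.02, -0.00412 and 0.13, none of them called.

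Among lectin chaperones and disulfide enzymes, CALR (calreticulin) had 10.78, 10.80 and 10.61 in replicate 2, against 10.12, 9.93 and 10.08 in replicate 1. It was higher in replicate 2 in every line (0.69, standard error 0.09, limma adjusted p = 0.000651), or 1.61-fold, while its membrane-bound relative CANX had a difference of 0.09 (limma adjusted p = 0.501). PDIA4, a disulfide isomerase, had 8.27, 8.21 and 7.96 in replicate 2, against 7.71, 7.62 and 7.75 in replicate 1. It was higher in replicate 2 (0.45, limma adjusted p = 0.0067) without overlap, and was not called at 0.38 without either array of shlinc00598#3.

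ERO1B had 8.46, 8.55 and 8.41 in replicate 2, against 8.80, 9.01 and 9.32 in replicate 1. It was lower in replicate 2 (-0.57, standard error 0.11, limma adjusted p = 0.00431), most so in shCTL, and a second probe gave -0.52. PDIA6, a disulfide isomerase, had 11.81, 11.65 and 11.61 in replicate 2, against 11.40, 11.34 and 11.57 in replicate 1. Its replicates did not overlap, but the difference of 0.25 was not called (limma adjusted p = 0.0736). It was called with median scaling (0.30, adjusted p = 0.0374), and at 0.35 without shCTL replicate 2 or without shCTL replicate 1 (limma adjusted p = 0.0127). P4HB had a difference of -0.11 and was not called.

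Of the secreted proteins, CRELD2 had 11.55, 11.50 and 11.29 in replicate 2, against 11.22, 10.70 and 11.18 in replicate 1. It was higher in replicate 2 (0.41, standard error 0.13, limma adjusted p = 0.0291), and shlinc00598#3 of replicate 1 stood below the other arrays. It was not called without any 1 of the 4 knockdown arrays, at 0.22 without either array of shlinc00598#3 and 0.45 without either of shlinc00598#2. MANF had a difference of 0.22 and was not called (limma adjusted p = 0.0734), but was with median scaling (0.33, adjusted p = 0.0183).

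EDEM1, of the ERAD genes, had 9.89, 10.07 and 9.91 in replicate 2, against 10.13, 10.35 and 10.42 in replicate 1, and was the only 1 of the 9 measured ERAD and translocon genes on the list called, where 36.6% of all genes were (-0.35, standard error 0.09, limma adjusted p = 0.0157). Without shCTL replicate 2, or without shCTL replicate 1, it had -0.26 and was not called. The other 8 ran from -0.12 for EDEM3, a mannosidase-like protein, to 0.21 for DERL3, a derlin. SEL1L, the adaptor of the ubiquitin ligase SYVN1, had a difference of 0.10, and SYVN1 had 0.03. EDEM2, DERL1 and SEC61B, a subunit of the translocation channel, had 0.01, 0.03 and -0.08. The 2 SYVN1 probes had knockdown differences of opposite sign, 0.06 for the brighter one and -0.09 for the other.

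**Figure D3:**
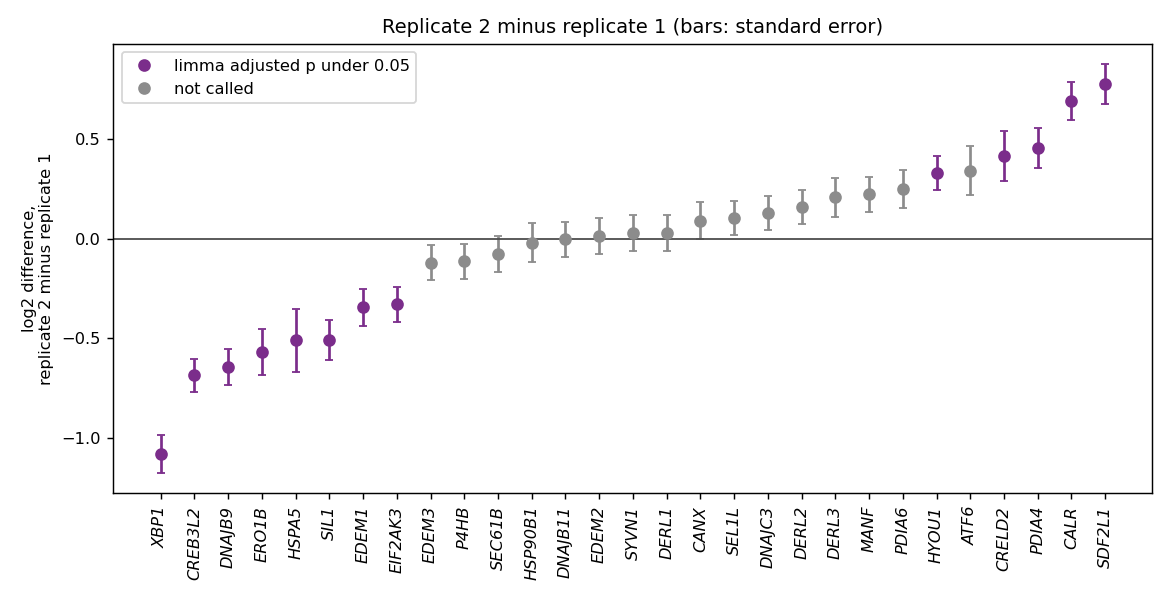
Log2 difference of replicate 2 minus replicate 1 for the 29 measured genes, in order of size (points, estimate of the limma fit with line and replicate as terms; bars, standard error; purple, adjusted p under 0.05). The 8 called genes at the left run from -1.08 (XBP1) to -0.33 (EIF2AK3), and the 5 called at the right from 0.33 (HYOU1) to 0.77 (SDF2L1).

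The stretches shown above were picked because their genes lay on both sides of this difference. The counts here are therefore over all measured genes with a window. Of the 10 measured genes with an ERSE or ERSE-II, 3 were lower in replicate 2 (HSPA5, XBP1 and ERO1B), 4 were higher (CALR, CRELD2, SDF2L1 and HYOU1) and 3 were not called (HSP90B1, CANX and PDIA6). Of the 17 measured genes with a window and neither element, 5 were lower, 1 was higher and 11 were not called. Of all genes, 17.8% were called lower in replicate 2 and 18.8% higher. These are counts without a test.

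Some cell markers differed between the replicates as well. NEFM, a neurofilament gene on the HEK293t marker list, was lower in replicate 2 (log2 difference -1.49), and 3 of the 5 measured markers on that list were called, where 36.6% of all genes were. The summed intensity of the 3 measured fibroblast markers ranged from 457 to 538 in replicate 2 and from 640 to 723 in replicate 1, with COL1A1 and COL3A1 called lower, COL1A2 not detected, and DCN detected on only some arrays. The single measured leukocyte marker (198 to 237 in replicate 2, 160 to 202 in replicate 1) and the 2 measured hepatocyte markers (333 to 383 in replicate 2, 385 to 415 in replicate 1) were not called. Their part in the differences between replicates was not tested.

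Genes of the neighbouring pathways were read from further lists. Of 32 other ER folding genes, 30 were tested. With the replicate block, limma called 0 of them for the knockdown, and 1 was lower and 2 higher at an unadjusted p under 0.05. Their median difference was 0.0024, and between replicates 9 were called lower in replicate 2 and 2 higher, where 17.8% and 18.8% of all genes were. The members with the smallest p in the knockdown were TMX2 (0.25) and FKBP2 (0.23), a membrane thioredoxin-like protein and a prolyl isomerase, and PDIA5 (-0.26) and HSPA13 (-0.20), a disulfide isomerase and an HSP70 relative.

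Of 26 other ERAD genes 24 were tested, with 0 called for the knockdown and a median of -0.00273. Between replicates 3 were called lower in replicate 2 and 2 higher, where 17.8% and 18.8% of all genes were. UFD1 (0.29) and UBE2J1 (0.25), a cofactor of the segregase VCP and a ubiquitin-conjugating enzyme, and MARCHF6 (-0.24) and AUP1 (0.19), a ubiquitin ligase and a lipid droplet protein that recruits such enzymes, had the smallest p. Of 29 genes of the translocon, signal peptidase and oligosaccharyl transferase 28 were tested, with 0 called for the knockdown and a median of 0.03. Of these 28, 8 were called lower in replicate 2 and 3 higher, beside the same 17.8% and 18.8% of all genes. SSR3, a subunit of the translocon-associated complex, had the largest difference of those named, 0.75 (standard error 0.19, blocked limma fit, adjusted p = 0.151), with gaps to shCTL of 0.03 in shlinc00598#2 and 1.52 in shlinc00598#3 of replicate 2 and of 0.56 and 0.89 in those of replicate 1. SSR1, of the same complex, and SRPRB and SRPRA, of the receptor for the signal recognition particle, had 0.22, 0.20 and 0.16.

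Of 20 other genes of UPR signalling 16 were tested, with 0 called for the knockdown and a median of 0.000263. Between replicates 4 were called lower in replicate 2 and 4 higher, beside 17.8% and 18.8% of all genes. MBTPS1 (-0.23) and MBTPS2 (-0.23), the proteases that cleave ATF6, BAK1 (0.25), a cell death protein, and NCK1 (-0.15), an adaptor, had the smallest p. The limma fit without the block called 0 genes on any of the 5 lists.

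The last list held 15 genes of the PERK and ATF4 branch, and all 15 were tested. Besides genes of its output, the list holds ATF4 itself, EIF2S1 and PPP1R15B, which are parts of the branch. Their median knockdown difference was -0.34 in the mean of both lines, and 5 of the 15 met the 1.4-fold criterion in the lower direction in both lines, where 0.284% of all genes were. The median was -0.85 in replicate 2 and -0.000268 in replicate 1. With the replicate block, limma called 0 of the 15, and 6 were lower and 0 higher at an unadjusted p under 0.05, where 7.58% and 6.13% of all genes were. This list too was chosen with earlier results of these data known.

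ATF3, a stress-induced transcription factor, had gaps to shCTL of -1.40 and -1.26 in shlinc00598#2 and shlinc00598#3 of replicate 2, and of -0.56 and -0.28 in those of replicate 1 (mean -0.87, standard error 0.17, blocked limma fit, adjusted p = 0.107). DDIT3, which encodes CHOP, had -1.30 and -1.15 in replicate 2 and -0.09 and -0.28 in replicate 1 (mean -0.70, adjusted p = 0.19 in the same limma fit). VLDLR, a lipoprotein receptor, averaged -0.58, and PPP1R15A, a phosphatase subunit that reverses the action of PERK, averaged -0.34. These 4 had the smallest p of the list and were lower than shCTL in each of the 4 comparisons within a replicate, as 5 of the 15 were (16.1% of all genes). A further 5, chosen here after their values were seen, were lower in both knockdown arrays of replicate 2 and higher in both of replicate 1, as were 10.3% of all genes. They were CHAC1, SESN2, STC2, CEBPB and NUPR1. CHAC1, which breaks down glutathione, had gaps of -1.62 and -1.36 in replicate 2 and of 0.80 and 0.60 in replicate 1. TRIB3 and EIF2S1, also named after their values were seen, were above shCTL in the mean of both lines (0.06 and 0.08). The other genes of the list were below it.

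The same list was lower in replicate 2 than in replicate 1, with a median of -0.92. The limma fit called 10 of the 15 lower and 0 higher, where 17.8% and 18.8% of all genes were. The log2 difference was -3.73 for ATF3 (limma adjusted p = 3.56e-06), -2.09 for PPP1R15A and -1.24 for DDIT3, and all 3 exceeded in size the difference of XBP1. EIF2AK3, which encodes PERK, had -0.33. Whether its difference is linked to those of the list was not tested. In replicate 2 the knockdown differences of the 29 ER genes ran from -0.28 to 0.27.

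**Figure D4:**
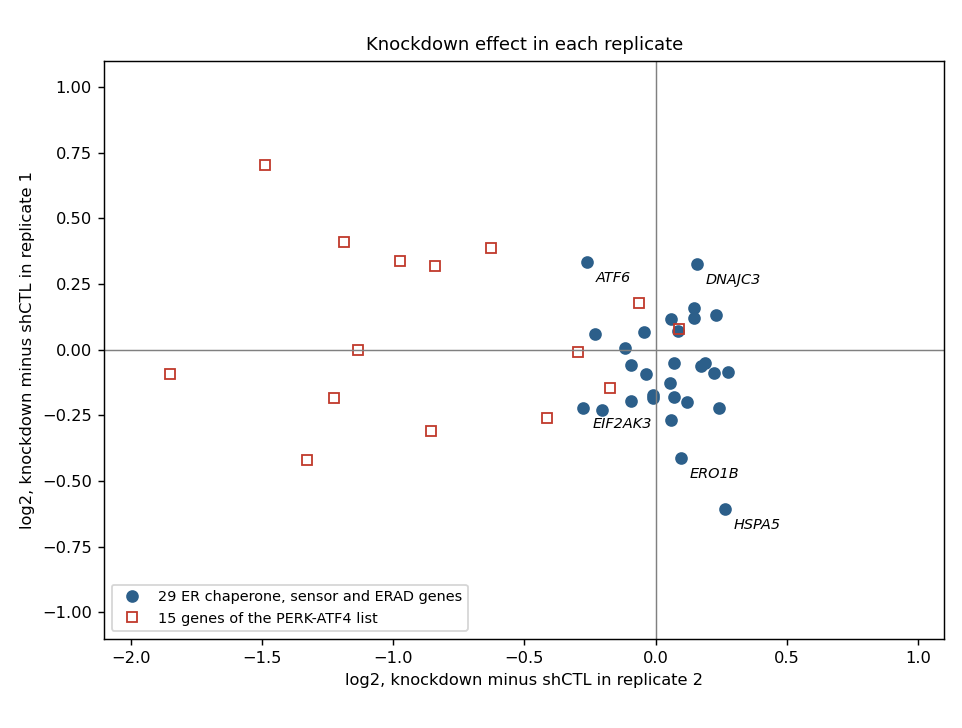
Log2 difference of the mean of both knockdown lines from shCTL in replicate 2 (horizontal) and in replicate 1 (vertical), for the 29 measured ER genes (blue circles) and the 15 genes of the PERK and ATF4 list (open red squares). The ER genes lie between -0.28 and 0.27 on the horizontal axis, while the list has a median of -0.85 there and of -0.000268 on the vertical axis; HSPA5 is the lowest circle, at -0.61 in replicate 1.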

How the data were processed

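RNA of 3 HEK293t lines was read on 6 Illumina arrays. The authors exported a deposited table of probe intensity values, not normalized, and a detection p-value beside every probe, from GenomeStudio 2011.1. The authors also deposited log2 intensities after quantile normalization. In 4 of the 6 columns of that table the values are those of another array than the sample description names. It therefore served as an alternative only, and the labelling of the values not normalized was followed. Which of these labellings is right was not settled.

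The intensities were quantile-normalized and put on the log2 scale with limma 3.58.1 in R 4.3.3, background left uncorrected. A probe was kept where its detection p was under 0.05 on the 2 arrays of any line (21282 of 47321). Each gene took the value of the kept probe of highest mean (12192 genes), and 5033 probes without a single symbol stood for themselves. Symbols came from the platform annotation, in which 30113 probes carry 1 symbol, 8 several and 17200 none.

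Tests were two-sided, with p-values adjusted by Benjamini-Hochberg across all 17225 features and a threshold of 0.05. The fit had line means only, or the replicate number as a block: the differences between the replicates correlated at 0.742 to 0.827 between the lines across genes, which are not independent. The replicate and interaction contrasts were fitted as described beside them, and the methods' t-test compared 4 knockdown with 2 control arrays. The interaction fit treated the 2 knockdown lines as replicates of the knockdown. Fits were tested on simulated data with known changes.

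Values on every array are given for HSPA5, HSP90B1, XBP1, each gene called in any fit or 1.4-fold different, and the 3 highest and 3 lowest knockdown differences. On other lists the genes with the smallest blocked p are named, up to 4 a list. ATF6 and PDIA6 were given in full after their values were seen. The members and lists were chosen with earlier results of these data known. Alternatives were neqc (offset 16), median scaling, the authors' table, other detection filters, the mean of a gene's probes, the block, the t-test and each array left out.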

Additional observations from a re-analysis of the deposited data

Results flagged for a closer look

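In 8 of the 29 genes both knockdown arrays of replicate 2 lay on the opposite side of shCTL from both knockdown arrays of replicate 1. Of the 29, 6 were higher than shCTL in replicate 2 and lower in replicate 1, as were 9.61% of all genes. The other 2 went the opposite way, as did 10.3% of all genes. The knockdown difference in replicate 2 minus that in replicate 1 was 0.87 for HSPA5, 0.51 for ERO1B, 0.36 for PDIA4, 0.32 for PDIA6, 0.31 for SDF2L1 and 0.23 for SYVN1. It was -0.60 for ATF6 and -0.29 for XBP1. The limma interaction fit tested each of these differences and called none, with adjusted p-values of 0.627 or more. Each rests on 1 control array in either replicate. The values are those of the brightest probe of each gene. The second kept probes of ERO1B, SYVN1 and XBP1 did not change sides between the replicates in this way.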

How the results depend on the processing

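The counts of 0 genes called for the knockdown, in either line and between the lines held with neqc, median scaling, the authors' table, the other detection filters, the mean of a gene's probes and each array left out; the methods' t-test, run on the mean of both lines only, called 0 as well. The replicate block called 0 of the 29 genes and changed no call of these contrasts. In blocked fits with 1 array left out, chosen after seeing the data, between 0 and 1 genes were called, the 1 being HSPA5 without shCTL replicate 2, and between 0 and 252 of all features were, with 252 in that fit. Among the unblocked fits with 1 array left out, the 1.4-fold criterion was met only without shCTL replicate 2, by HSPA5, XBP1 and ERO1B in the lower direction. The share of all genes that met it in that fit was not counted. With median scaling, which moved the median of all genes to 0.03, 1 gene was lower in all 4 comparisons within a replicate in place of 3. The genes higher in all 4 numbered 4 with the mean of a gene's probes. They also numbered 4 with detection p under 0.01 required on all 6 arrays. With the authors' table, read by the columns' own labels, 1 was higher in all 4 in place of 5. There 0 of the 29 and 0% of all genes differed between replicates, in place of 13 and 36.6%. By the labelling used here, the columns that hold another array mix the replicates. Between replicates 10 genes were called with neqc, which lost HSPA5, CRELD2 and EDEM1, and 16 with median scaling, which gained PDIA6, MANF and ATF6. Requiring detection p under 0.01 on all 6 arrays left 27 genes, of which 13 were called. Of all genes, 29.3% were called with neqc, 35.4% with median scaling and 44.2% with that filter, beside 36.6% without these changes. The share was 23.3% to 38.3% with 1 array left out. With 1 array left out 10 to 12 were called: HSPA5 and EDEM1 were lost without either shCTL array, CRELD2 without any 1 of the knockdown arrays, and PDIA4, HYOU1 and EIF2AK3 without either shlinc00598#3 array, while PDIA6 was gained without either shCTL array and ATF6 without either shlinc00598#3 array. No called difference changed sign. The sign of uncalled knockdown differences changed in 2 genes with median scaling, 13 with the authors' table and 16 without shCTL replicate 1.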
